A study of Mus musculus with 2 samples.

Results

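The ADAMTS, MMP and TIMP genes of perivascular fat were described by type of nucleus and by library. Every listed gene was taken whose symbol is Adamts or Adamtsl with a number, Mmp with a number and at most 1 further letter, or Timp with a number. That gave 50 of 32285 listed genes: 19 Adamts, 5 Adamtsl, 22 Mmp and 4 Timp. The choice used symbols only and no measured value. The tissue was snap-frozen mesenteric perivascular fat of 11-week-old mice, and the RNA of its nuclei was counted in droplets in 2 libraries. The control library came from mice with floxed Prdm16 alleles and no Cre named (genotype Prdm16flox). The library called cKO here came from mice with the same floxed alleles and Cre recombinase driven by the adiponectin promoter, which is active in adipocytes, so the deletion is aimed at adipocytes and not at the cells around them (genotype Prdm16flox, AdopiQCre+). Both groups carried the floxed alleles, and how many animals were pooled is not given in the sources used here. The series title names thoracic and abdominal fat, and the sample labels, which name mesenteric fat, were followed.

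ADAMTS and MMP proteins are zinc-dependent proteases that cut the proteins of the extracellular matrix and the surfaces of cells. MMPs cut collagens, gelatins, laminins and many soluble proteins, and several are held in the plasma membrane. ADAMTS proteases have narrower substrates, such as procollagen ends, aggrecan, versican and von Willebrand factor, while ADAMTS-like proteins keep the binding domains, lack the protease and associate with fibrillin microfibrils. TIMPs are the secreted inhibitors that occupy the active site of these enzymes, and TIMP3 also binds to the matrix and inhibits ADAMTS proteases. In fat, these genes are known for the remodelling of matrix when adipocytes enlarge and vessels grow.

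There was 1 library per genotype, so every difference below compares those libraries, has no replicate check and carries no p-value. The control library kept 10532 nuclei with a median of 7047.5 unique molecular identifiers (UMIs, counted RNA molecules) per nucleus, and the cKO library kept 7374 with a median of 6497. The libraries shared 28 barcodes. Clustering without the 50 genes gave 29 clusters. A class of nuclei was compared when both libraries held 100 or more of its nuclei, which left 9: adipocyte-like, progenitor or fibroblast-like (called fibroblast-like below), mesothelial-like, macrophage-like, vascular endothelial-like, T cell-like, dendritic-like, B cell-like and lymphatic endothelial-like. The counts of a class were summed per library and scaled to CPM (counts per 1000000 UMIs) of that class, with 95% intervals that cover counting error only. Levels are compared between classes for 1 gene and not between genes, since counts were not scaled by length. Free RNA was present in the droplets: in T cell-like nuclei, the summed markers of adipocytes reached 33.6% (control) and 45.8% (cKO) of what adipocyte-like nuclei had. A low level in lymphocyte-like nuclei is therefore given as background beside the levels of adipocyte genes. In mesothelial-like nuclei, the summed fibroblast markers reached 68.5% (control) and 80.6% (cKO) of what fibroblast-like nuclei had. The part of free RNA in this was not tested, so contrasts between these classes are uncertain to that extent. Prdm16 itself had 16.3 CPM (15.3 to 17.4) in the control and 22.5 CPM (21 to 24) in the cKO library in adipocyte-like nuclei. It was highest in vascular endothelial-like nuclei, with 264 CPM (248 to 281) in the control and 140.3 CPM (127 to 155) in the cKO library, a log2 ratio of cKO over control of -0.91 (-1.09 to -0.74), and the ratio in macrophage-like nuclei was -0.87 (-1.59 to -0.19). These lower levels lie in classes that the Cre is not aimed at. In adipocyte-like nuclei the log2 ratio was above 0, at 0.46 (0.33 to 0.6). It was also above 0 in fibroblast-like (0.86 (0.16 to 1.57)) and mesothelial-like nuclei (0.96 (0.2 to 1.71)). The floxed exon is not given in the sources used here, so these counts do not check the labels.

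Most of the 38 genes that could be read had their highest level outside adipocyte-like nuclei, and the class that held it was mostly the same in both libraries. Of the 50 genes, 48 had over 3 UMIs in the kept nuclei. The highest class was read for the 38 genes with at least 20 UMIs in the 9 classes of each library, and it was the same in both for 32 of them (background 56.3% of all genes with as many counts). Fibroblast-like nuclei were highest in both libraries for 12 genes (Adamts2, Adamts5, Adamts6, Adamts10, Adamts12, Adamts16, Adamtsl2, Adamtsl3, Mmp2, Mmp3, Mmp11 and Mmp14). Mesothelial-like nuclei, from the sheet that covers abdominal organs, were highest for 9 (Adamts3, Adamts7, Adamts15, Adamts17, Adamts19, Adamtsl1, Adamtsl5, Mmp16 and Mmp24). Vascular endothelial-like nuclei were highest for 5 (Adamts1, Adamts9, Adamts18, Mmp15 and Timp4), and lymphatic endothelial-like nuclei for Timp3 and Mmp17. T cell-like nuclei were highest for Adamts14 and Mmp25, macrophage-like nuclei for Mmp9, and adipocyte-like nuclei for Mmp28 alone. Of all genes tested, the class highest in both libraries was fibroblast-like for 5.65%, mesothelial-like for 8.1% and vascular endothelial-like for 2.84%. It was lymphatic endothelial-like for 5.37%, T cell-like for 6.96%, macrophage-like for 4.82% and adipocyte-like for 11.0%, the largest share of the 9 classes. Whether the members differ from these shares was not tested. The other 6 (Adamts20, Adamtsl4, Mmp19, Mmp23, Mmp27 and Timp2) had different highest classes in the libraries.

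**Figure D1:**
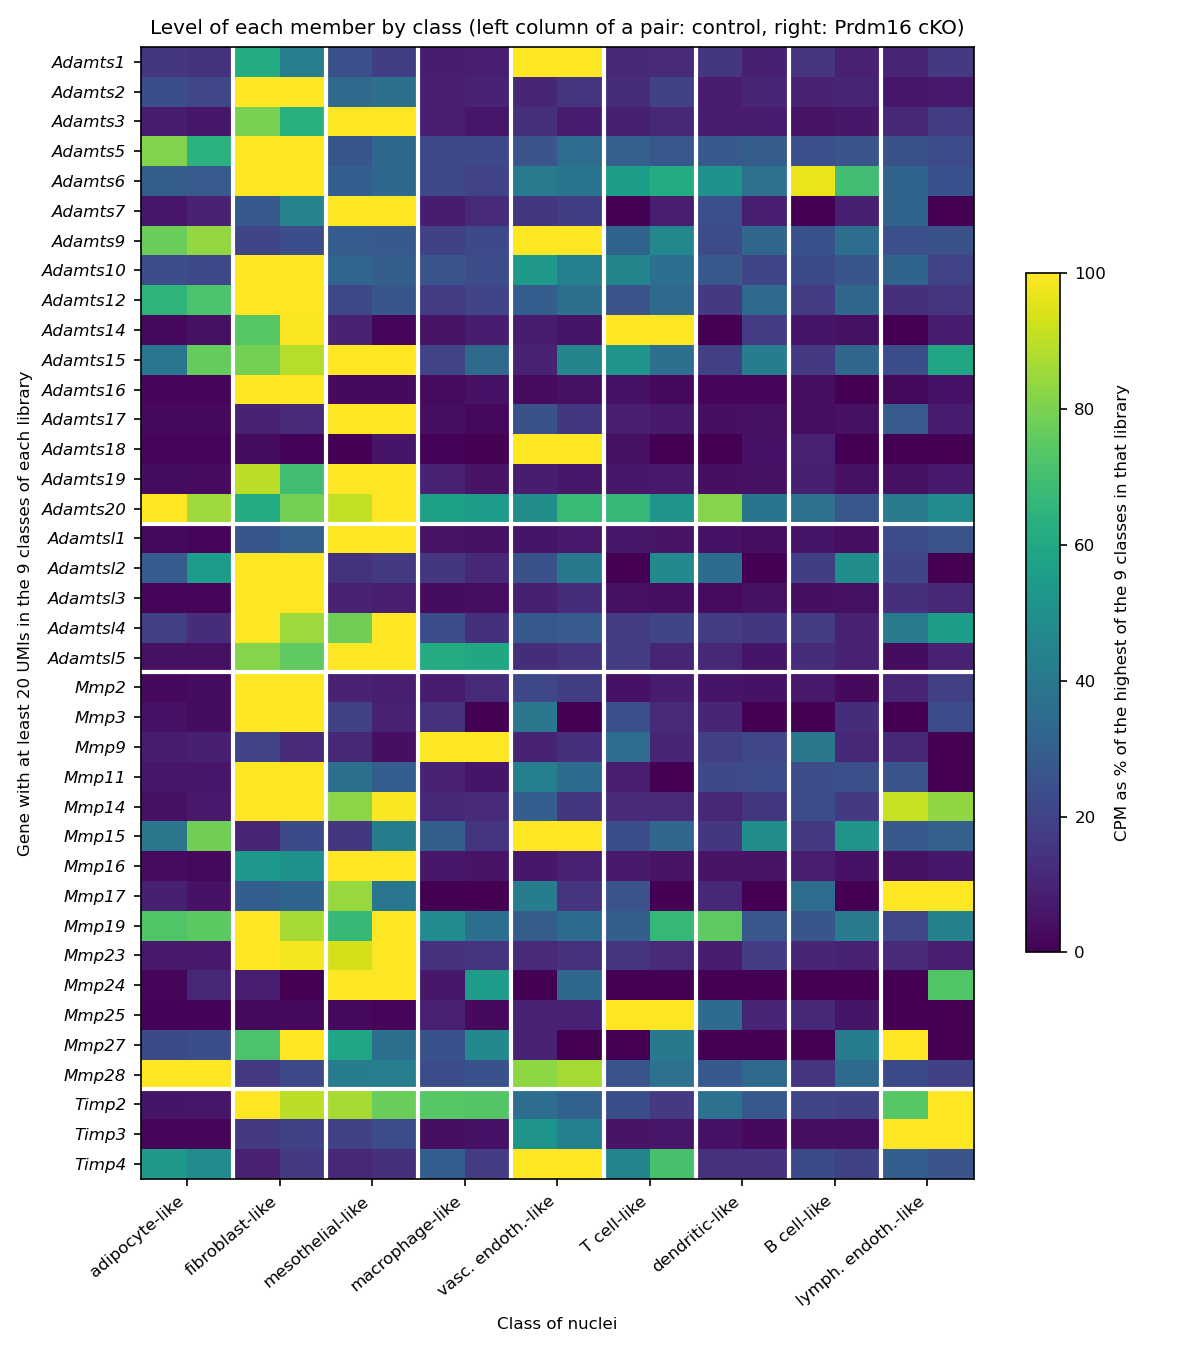
Level of each of the 38 genes with at least 20 UMIs in the 9 classes of each library (rows) in the 9 classes (pairs of columns, control left and cKO right), as a percentage of the highest class of that gene in that library. Bright cells lie mostly in the fibroblast-like and mesothelial-like columns, and 32 of the 38 rows have their brightest cell in the same class in both libraries.

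The 4 inhibitors differed in where they were found. Timp3, the matrix-bound inhibitor (ENSMUSG00000020044, chromosome 10, 86300372 to 86349506, plus strand, mm10), was highest, among the 9 classes, in the nuclei that line vessels. Lymphatic endothelial-like nuclei had 787 CPM (737 to 839) in the control and 716 CPM (652 to 785) in the cKO library. Vascular endothelial-like nuclei followed with 408 CPM (389 to 429) in the control and 310.5 CPM (290.1 to 332) in the cKO library. Pericyte-like nuclei, too few to compare, had 1519 and 1143 CPM. Both endothelial classes lay above adipocyte-like nuclei, which had 12.7 and 12.9 CPM, and above B cell-like nuclei at 31.8 and 27.2 CPM. After every nucleus was thinned to 1000 UMIs, Timp3 was found in 51.1% (44.3 to 57.9%) and 43.2% (33.9 to 53%) of lymphatic endothelial-like nuclei, control then cKO. In B cell-like nuclei the thinned shares were 4.0% (2.08 to 6.88%) and 4.38% (1.78 to 8.81%).

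Timp2, an inhibitor that also takes part in the activation of pro-MMP2 at the cell surface (ENSMUSG00000017466, chromosome 11, 118301069 to 118355740, minus strand), was spread over stromal and lining cells. Fibroblast-like nuclei had 210.4 CPM (199.9 to 221) in the control and 178 CPM (167 to 189.6) in the cKO library. The levels were 183 and 154 CPM in mesothelial-like nuclei, 156 and 198 CPM in lymphatic endothelial-like nuclei and 156 and 145 CPM in macrophage-like nuclei, control then cKO, as in all such pairs below. Fibroblast-like nuclei were highest in the control and lymphatic endothelial-like nuclei in the cKO library, where the intervals of these classes overlapped. Adipocyte-like nuclei, with 12.1 and 12 CPM, were the lowest of the 9 classes in both libraries, and gave 13.1% and 14.9% of all Timp2 counts although they held 62.1% and 61.2% of all UMIs.

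Timp4 (ENSMUSG00000030317, chromosome 6, 115241892 to 115252205, minus strand) was the only inhibitor with most of its counts in adipocyte-like nuclei. Adipocyte-like nuclei had 9.07 CPM (8.31 to 9.88) in the control and 8.52 CPM (7.61 to 9.50) in the cKO library, and vascular endothelial-like nuclei had 16.9 CPM (13.1 to 21.5) in the control and 17.7 CPM (13.1 to 23.4) in the cKO library. Adipocyte-like nuclei gave 73.9% and 67.4% of its counts, with 62.1% and 61.2% of all UMIs. T cell-like nuclei had 7.60 and 12.6 CPM from 14 and 15 UMIs, so the adipocyte level was not above that background, and the difference between adipocyte clusters given further on bears on it more directly. Timp1, the inhibitor best known from inflamed tissue (ENSMUSG00000001131, chromosome X, 20870166 to 20874735, plus strand), was almost absent, with 49 UMIs in all control nuclei and 14 in all cKO nuclei. No class reached 20 Timp1 UMIs over both libraries. Timp1, Timp3 and Timp4 each lie inside, and antisense to, a synapsin gene (Syn1, Syn3 and Syn2), and Timp2 overlaps Cep295nl on the same strand. How the counting handled such overlaps is not given in the sources used here, so these counts are uncertain to that extent. Other members overlap listed genes too. Overlapping genes are given below with Adamts9, Adamts7, Adamtsl1, Mmp19 and Mmp24, and not with the remaining members. Syn3 was highest in mesothelial-like nuclei (351 and 377 CPM), where Timp3 was not at its highest. Syn2 was highest in lymphatic endothelial-like nuclei (32.86 and 40.58 CPM). It had 10.09 and 10.84 CPM in vascular endothelial-like nuclei, where Timp4 was highest at 16.9 and 17.7 CPM. The part of the overlapping genes in the counts of the inhibitors was not tested.

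**Figure D2:**
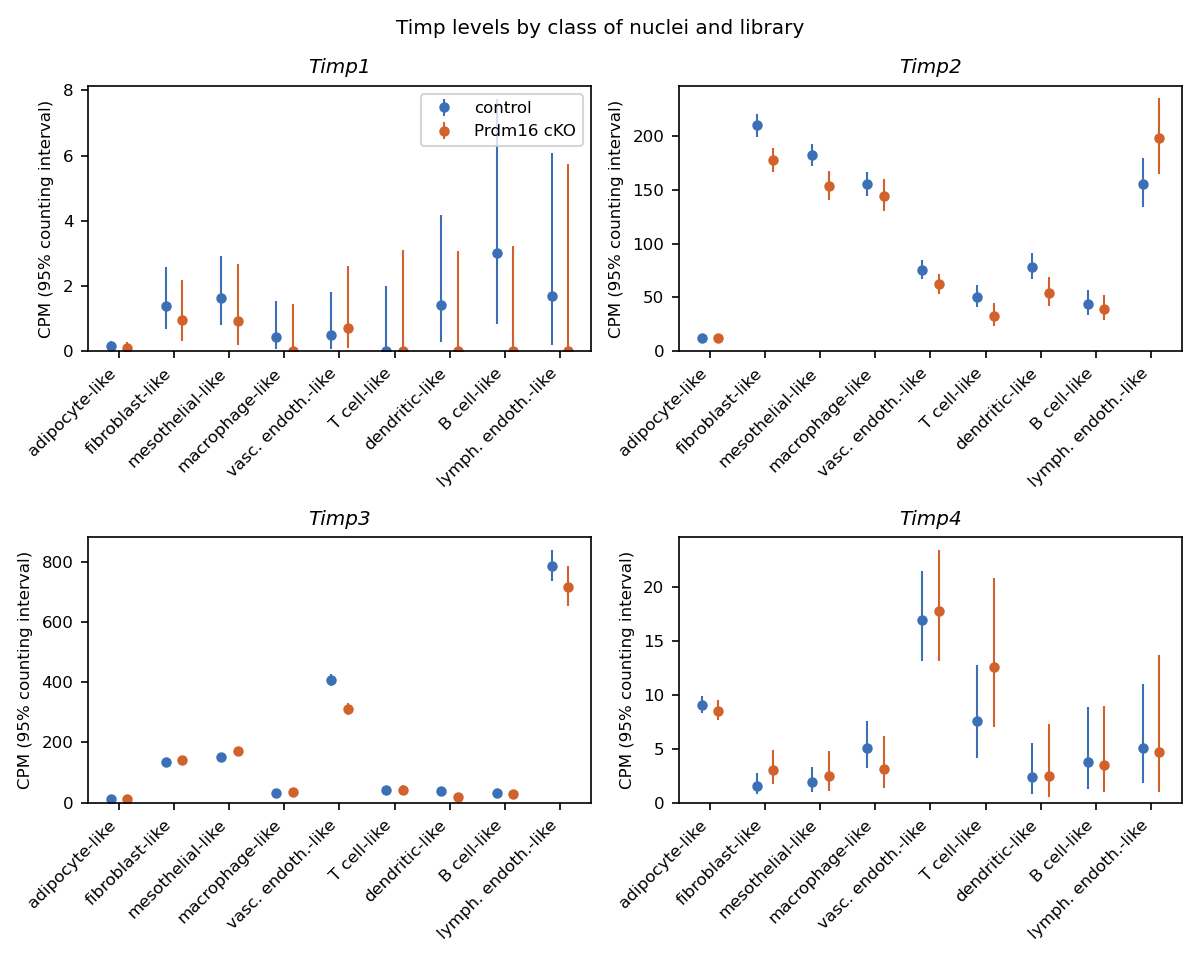
CPM of Timp1, Timp2, Timp3 and Timp4 (vertical axes, linear) in the 9 classes, with control in blue and cKO in orange and bars for the 95% counting interval. Timp3 peaks in lymphatic endothelial-like nuclei at 787 and 716 CPM, whereas every Timp1 point lies under 4 CPM.

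The procollagen N-proteinases Adamts2, Adamts3 and Adamts14, which trim the amino end of fibrillar procollagens, had different leading classes. Adamts2 (ENSMUSG00000036545, chromosome 11, 50602084 to 50807573, plus strand) had 457 CPM (441 to 473) in the control and 387 CPM (370.0 to 404) in the cKO library in fibroblast-like nuclei. For comparison, Adamts2 stood at 109 and 82.9 CPM in adipocyte-like and at 45.4 and 39.4 CPM in B cell-like nuclei. Adamts3 (ENSMUSG00000043635, chromosome 5, 89677087 to 89883334, minus strand) was highest in mesothelial-like nuclei, with 112 CPM (104 to 120.0) in the control and 125 CPM (113 to 137) in the cKO library. Fibroblast-like nuclei followed at 89.4 and 79.1 CPM, and adipocyte-like nuclei had only 8.91 and 7.65 CPM. Adamts14 (ENSMUSG00000059901, chromosome 10, 61197112 to 61273438, minus strand) had 27.1 CPM (20.1 to 35.8) in the control and 19.3 CPM (12.2 to 29) in the cKO library in T cell-like nuclei. Fibroblast-like nuclei had 20.1 and 19.2 CPM, with intervals that overlapped those of T cell-like nuclei, and adipocyte-like nuclei had 0.538 and 0.867 CPM.

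The proteases that cut aggrecan and versican, large proteoglycans that fill the space between cells, included Adamts5 and Adamts9, which were abundant in adipocyte-like nuclei. Adamts5 (ENSMUSG00000022894, chromosome 16, 85856173 to 85901828, minus strand) had 399 CPM (384 to 414) in the control and 399.8 CPM (383 to 417) in the cKO library in fibroblast-like nuclei. Adipocyte-like nuclei were the next class in both libraries, with 324 CPM (319.5 to 329) in the control and 255 CPM (250.0 to 260.2) in the cKO library. B cell-like nuclei, given as background, had 96.8 and 106 CPM, so adipocyte-like nuclei lay above them in both libraries. Adamts9 (ENSMUSG00000030022, chromosome 6, 92772699 to 92943492, minus strand) had 292 CPM (275 to 309) in the control and 347 CPM (326 to 370.1) in the cKO library in vascular endothelial-like nuclei and 226 and 291 CPM in adipocyte-like nuclei, which gave 77.5% and 74.4% of all its counts. Adipocyte-like nuclei held 62.1% and 61.2% of all UMIs. The gene 9530026P05Rik overlaps Adamts9 antisense and had 957.5 and 633.4 CPM in adipocyte-like and 1022 and 824.6 CPM in vascular endothelial-like nuclei. The Adamts9 counts are uncertain to that extent. The closest relative of Adamts9, Adamts20 (ENSMUSG00000022449, chromosome 15, 94270163 to 94465418, minus strand), had only 4.08 and 5.49 CPM in adipocyte-like nuclei and no class above 7 CPM among the 9.

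Adamts1 (ENSMUSG00000022893, chromosome 16, 85793827 to 85803113, minus strand), a versican-cutting protease that also restrains vessel growth, had 24.2 CPM (19.6 to 29.6) in the control and 28.2 CPM (22.3 to 35.2) in the cKO library in vascular endothelial-like nuclei. Fibroblast-like nuclei had 14.9 and 12.1 CPM and adipocyte-like nuclei 3.87 and 4.13 CPM. Adamts1 and Adamts5 lie next to each other on chromosome 16 with 53.1 kb between them, yet their leading classes, vascular endothelial-like and fibroblast-like, differed in both libraries. Adamts15 (ENSMUSG00000033453, chromosome 9, 30899155 to 30922452, minus strand) was highest in mesothelial-like nuclei at 17.6 and 15.9 CPM, with fibroblast-like nuclei at 14 and 14.1 CPM and intervals that overlapped. Adamts8 lies 20.1 kb from Adamts15 on chromosome 9 and had 28 and 30 UMIs in all. Adamts4, known as an aggrecanase of cartilage, had 28 and 8 UMIs in all, 15 and 3 of them in fibroblast-like nuclei.

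Adamts12 and Adamts7, which both cut cartilage oligomeric matrix protein, were unlike in level pattern. Adamts12 (ENSMUSG00000047497, chromosome 15, 11064790 to 11349231, plus strand) had 867 CPM (845 to 889) in the control and 620.0 CPM (599 to 642) in the cKO library in fibroblast-like nuclei and 565 CPM (559 to 571) in the control and 444 CPM (437 to 450.3) in the cKO library in adipocyte-like nuclei. B cell-like nuclei had 149.8 and 204 CPM, and pericyte-like nuclei, too few to compare, had 1363 and 1047 CPM. Adamts7 (ENSMUSG00000032363, chromosome 9, 90163069 to 90208071, plus strand) was scarce, with 7.86 CPM (5.88 to 10.3) in the control and 9.80 CPM (6.70 to 13.8) in the cKO library in mesothelial-like nuclei as its highest level. Tbc1d2b overlaps Adamts7 antisense and had 87.5 and 112 CPM in mesothelial-like nuclei, so the Adamts7 counts are uncertain to that extent. Adamts6 and Adamts10, a related pair that act on fibrillin microfibrils, were both highest in fibroblast-like nuclei. Adamts10 (ENSMUSG00000024299, chromosome 17, 33524204 to 33553782, plus strand) had 237 CPM (226 to 248) in the control and 265 CPM (252 to 279.7) in the cKO library there, followed by vascular endothelial-like nuclei at 127 and 115 CPM. Adamts6 (ENSMUSG00000046169, chromosome 13, 104287835 to 104496695, plus strand) had 251 and 234 CPM in fibroblast-like nuclei. It was also high in B cell-like nuclei, with 244 CPM (218 to 272) in the control and 162 CPM (139.6 to 187) in the cKO library. In the control, the intervals of Adamts6 in fibroblast-like and B cell-like nuclei overlapped, and adipocyte-like nuclei lay below both at 76.3 and 67.1 CPM.

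The 4 genes of the pairs Adamts16 and Adamts18, and Adamts17 and Adamts19, were each high in 1 or 2 classes. Adamts16 (ENSMUSG00000049538, chromosome 13, 70727802 to 70841811, minus strand), a protease known to cut fibronectin, had 80.1 CPM (73.7 to 87) in the control and 62 CPM (55.5 to 69) in the cKO library in fibroblast-like nuclei. No other compared class passed 4 CPM. Adamts18 (ENSMUSG00000053399, chromosome 8, 113697126 to 113848738, minus strand) had 25 CPM (20.3 to 30.4) in the control and 16.6 CPM (12.2 to 22.2) in the cKO library in vascular endothelial-like nuclei, from 99 and 46 UMIs. It had 0 UMIs in lymphatic endothelial-like nuclei of both libraries, which allows up to 2.53 and 4.68 CPM at 3 counts. Adamts17 (ENSMUSG00000058145, chromosome 7, 66839735 to 67153171, plus strand) had 58.5 CPM (52.9 to 64.6) in the control and 57.6 CPM (49.6 to 66.4) in the cKO library in mesothelial-like nuclei. Adamts19 (ENSMUSG00000053441, chromosome 18, 58836667 to 59054060, plus strand) had 156 CPM (146 to 166) in the control and 155 CPM (141 to 169) in the cKO library in mesothelial-like nuclei and 139.6 and 107 CPM in fibroblast-like nuclei, and 5.41 and 4.57 CPM in adipocyte-like nuclei. Adamts13, the liver-made protease of von Willebrand factor, had 3 and 1 UMIs in all nuclei.

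Among the ADAMTS-like genes, Adamtsl1 and Adamtsl3 had the sharpest class patterns. Adamtsl1 (ENSMUSG00000066113, chromosome 4, 85514172 to 86428385, plus strand) had 2947 CPM (2906 to 2988) in the control and 3110.0 CPM (3049 to 3171) in the cKO library in mesothelial-like nuclei, which gave 59.1% and 49.1% of its counts with 7.27% and 5.26% of all UMIs. Fibroblast-like nuclei had 789 and 948 CPM, lymphatic endothelial-like nuclei 682 and 789.7 CPM and adipocyte-like nuclei 59.1 and 54.6 CPM. At 1000 UMIs a nucleus, it was found in 83.6% (81.1 to 85.8%) and 83% (79.5 to 86.1%) of mesothelial-like nuclei, and in 20.3% (15.9 to 25.3%) and 18.8% (13 to 25.7%) of B cell-like nuclei. Without thinning, the shares were 96.6% and 96.2% in mesothelial-like and 52.2% and 46.6% in B cell-like nuclei. Adamtsl1 overlaps Sh3gl2 on the same strand, and Sh3gl2 had 41.5 and 45.9 CPM in mesothelial-like nuclei.

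Adamtsl3 (ENSMUSG00000070469, chromosome 7, 82335694 to 82614450, plus strand) had 456 CPM (440.4 to 472) in the control and 428 CPM (410.2 to 446) in the cKO library in fibroblast-like nuclei. This class gave 71.7% and 71.0% of its counts with 7.72% and 8.54% of all UMIs, and adipocyte-like nuclei had 6.45 and 7.20 CPM. Adamtsl5 (ENSMUSG00000043822, chromosome 10, 80339110 to 80348412, minus strand), known to bind fibrillins, had 103 and 130.1 CPM in mesothelial-like nuclei, 83.8 and 98.3 CPM in fibroblast-like nuclei and 63 and 77.5 CPM in macrophage-like nuclei. Adamtsl4 (ENSMUSG00000015850, chromosome 3, 95676201 to 95687917, minus strand), which also binds fibrillin, had 30.4 and 31.1 CPM in fibroblast-like nuclei and 23.9 and 36.4 CPM in mesothelial-like nuclei, and the highest class differed between the libraries. Adamtsl2 (ENSMUSG00000036040, chromosome 2, 27079379 to 27108981, plus strand) was low throughout, with 4.05 and 3.58 CPM in fibroblast-like nuclei as its highest level.

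The gelatinases Mmp2 and Mmp9, which cut denatured collagen and basement membrane collagen, were found in different cells. Mmp2 (ENSMUSG00000031740, chromosome 8, 92827291 to 92853420, plus strand) had 32.7 CPM (28.6 to 37.1) in the control and 33 CPM (28.3 to 38.2) in the cKO library in fibroblast-like nuclei. That class gave 59.9% and 60.1% of its counts, and adipocyte-like nuclei had 0.798 and 1.13 CPM. Mmp9 (ENSMUSG00000017737, chromosome 2, 164940780 to 164955850, plus strand) had 7.61 CPM (5.33 to 10.5) in the control and 7.83 CPM (4.79 to 12.1) in the cKO library in macrophage-like nuclei, from 36 and 20 UMIs. Eosinophil-like nuclei, too few to compare, had 57.1 and 48.1 CPM of Mmp9. Their cluster was named from Ccr3, Siglecf, Il5ra and Alox15, but Retnlg, from the neutrophil marker set, was also among its leading genes. Whether it mixes these cell types was not tested. Among the 9 classes, the gelatinases thus had different leading classes, the same ones in both libraries.

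Membrane-anchored MMPs were split between stromal, mesothelial, endothelial and lymphocyte-like nuclei. Mmp14 (ENSMUSG00000000957, chromosome 14, 54431612 to 54445364, plus strand), the membrane enzyme that activates pro-MMP2, had 49.7 CPM (44.7 to 55.1) in the control and 41.3 CPM (36 to 47.1) in the cKO library in fibroblast-like nuclei. Mesothelial-like nuclei had 41.1 and 41 CPM and lymphatic endothelial-like nuclei 45.5 and 34.3 CPM, with intervals that overlapped those of fibroblast-like nuclei. Adipocyte-like nuclei had 2.19 and 2.84 CPM. Mmp16 (ENSMUSG00000028226, chromosome 4, 17852893 to 18119145, plus strand) had 182 CPM (172 to 192) in the control and 192 CPM (177 to 207) in the cKO library in mesothelial-like nuclei and 97 and 98.2 CPM in fibroblast-like nuclei. Mmp15 (ENSMUSG00000031790, chromosome 8, 95352268 to 95375080, plus strand) had 9.08 and 5.06 CPM in vascular endothelial-like nuclei and 3.61 and 3.97 CPM in adipocyte-like nuclei. In the cKO library the intervals of Mmp15 in these classes overlapped.

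The glycolipid-anchored Mmp25, a protease first known from leukocytes (ENSMUSG00000023903, chromosome 17, 23628311 to 23645277, minus strand) had 13.6 CPM (8.78 to 20.04) in the control and 15.9 CPM (9.61 to 24.9) in the cKO library in T cell-like nuclei. No other compared class passed 6 CPM for Mmp25. The other glycolipid-anchored enzyme, Mmp17, had 89 and 41 UMIs in all, and its place in lymphatic endothelial-like nuclei rested on 5 and 3 UMIs. Mmp24 had 28 and 23 UMIs in all, 22 and 7 of them in mesothelial-like nuclei. BC029722 overlaps Mmp24 antisense and had 4.74 and 3.37 CPM in mesothelial-like nuclei, where Mmp24 had 3.26 and 2.14 CPM. The Mmp24 counts are uncertain to that extent.

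Mmp28 (ENSMUSG00000020682, chromosome 11, 83440768 to 83463071, minus strand), a secreted MMP of epithelia and intact tissue, was the 1 member highest in adipocyte-like nuclei in both libraries. These nuclei had 142 CPM (138 to 145) in the control and 159.5 CPM (156 to 164) in the cKO library and gave 81.6% and 78.6% of its counts. They held 62.1% and 61.2% of all UMIs. Vascular endothelial-like nuclei came next with 118 and 138 CPM. B cell-like nuclei, the lowest of the 9 classes in the control, had 21.2 and 56.1 CPM, and the median of the classes was 36.9 and 56.1 CPM. Mmp19 (ENSMUSG00000025355, chromosome 10, 128790910 to 128800824, plus strand) was spread, with 19.7 and 18.6 CPM in fibroblast-like, 14.3 and 16 CPM in adipocyte-like and 13.2 and 21.4 CPM in mesothelial-like nuclei. Tmem198b overlaps Mmp19 antisense and had 19.6 and 23 CPM in mesothelial-like nuclei, so the Mmp19 counts are uncertain to that extent. Mmp23 (ENSMUSG00000029061, chromosome 4, 155650655 to 155653384, minus strand) had 49.3 and 54.5 CPM in fibroblast-like and 46.1 and 55.4 CPM in mesothelial-like nuclei, with overlapping intervals. Mmp11, known from stromal cells around tumours, had 6.42 and 7.16 CPM in fibroblast-like nuclei from 46 and 38 UMIs.

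The MMP genes that lie side by side on chromosome 9 were mostly scarce. Mmp13, Mmp12, Mmp1b, Mmp3, Mmp10, Mmp8, Mmp27, Mmp20 and Mmp7 lie in that order between positions 7272514 and 7699585 and include the interstitial collagenases and stromelysins. Over all kept nuclei, Mmp3 had 69 and 57 UMIs, Mmp27 had 66 and 78, and Mmp7 had 320 and 17. The others ranged from 0 to 17 UMIs in a library, with Mmp8 (0 and 2) and Mmp1b (2 and 1) at or under the 3 counts taken as the detection limit. The promoters of 4 of them are shown because they hold a pair of short motifs that were found together in 7 of these 9 genes and in no other matched member. The sequences are RefSeq's, on GRCm38.p6, plus strand, and each holds the 130 bases before the start of transcription. Capitals mark TGANTCA, called the AP-1 motif here, and TATAAA, called the TATA box here, by their letters alone and at any distance from the start. The windows are chr9:7272384-7272513 for Mmp13, chr9:7445692-7445821 for Mmp3, chr9:7502212-7502341 for Mmp10 and chr9:7691960-7692089 for Mmp7.
Mmp13: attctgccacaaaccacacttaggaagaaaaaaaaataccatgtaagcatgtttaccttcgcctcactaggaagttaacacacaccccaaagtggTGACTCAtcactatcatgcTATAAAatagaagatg
Mmp3: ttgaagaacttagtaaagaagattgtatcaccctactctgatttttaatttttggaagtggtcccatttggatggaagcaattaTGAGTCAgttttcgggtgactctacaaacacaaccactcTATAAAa
Mmp10: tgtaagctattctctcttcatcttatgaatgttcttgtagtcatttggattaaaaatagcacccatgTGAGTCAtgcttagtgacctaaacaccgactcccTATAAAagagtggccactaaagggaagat
Mmp7: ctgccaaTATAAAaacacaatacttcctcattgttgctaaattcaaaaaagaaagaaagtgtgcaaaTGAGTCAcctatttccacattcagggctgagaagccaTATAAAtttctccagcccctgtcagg

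Of the 50 members, 35 had an entry among the RefSeq promoters, with 38 promoters of 300 bases (250 before the start and 50 after). On either strand, the AP-1 motif was in 7.81% and the TATA box in 13.6% of all 32851 promoters, and both were in 1.54%. The motifs do not overlap in the printed windows. Among members, 7 held both: Mmp3, Mmp7, Mmp10, Mmp12, Mmp13, Mmp1b and Mmp20. Mmp20 held the first motif as TGAATCA. Mmp12 held both in the promoter from position 7347124, with TATAAA 4 bases after the start, and neither in the promoter from position 7344147. No matched member outside the chromosome 9 group held the AP-1 motif, and within it Mmp8 held the TATA box alone and Mmp27 neither motif. The Mmp8 match read on the opposite strand and ran across the start of transcription. A match describes letters and is no sign that a factor binds.

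Mmp3 (stromelysin 1) had 4.47 CPM (3.06 to 6.31) in the control and 6.78 CPM (4.75 to 9.39) in the cKO library in fibroblast-like nuclei, from 32 and 36 UMIs. Mmp27 had 1.81 and 4.14 CPM in fibroblast-like nuclei from 13 and 22 UMIs, and 0.572 and 0.999 CPM in adipocyte-like nuclei from 33 and 38 UMIs. Mmp7 (matrilysin), an epithelial enzyme of Paneth cells, had 192 CPM (168 to 218) in the control and 49.9 CPM (27.3 to 83.8) in the cKO library in intestinal epithelial-like nuclei, of which there were 145 and 24. Such nuclei are not part of fat, and the 33 control and 1 cKO Mmp7 UMIs of adipocyte-like nuclei moved with their number. Their part in those UMIs was not tested.

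Within a class, several members were concentrated in 1 cluster, in both libraries. Fibroblast-like nuclei were in cluster 5 (led by Fgf7 and C7), cluster 9 (Gfpt2, Pla1a, Has2 and Col14a1) and cluster 15 (Nkain3 and Itgbl1). For 24 of 32 measured members (at least 20 UMIs in the class over both libraries) the same fibroblast cluster was highest in both libraries, against 50.1% of all genes. Adamts16 had 240.1 CPM (220.2 to 261) in the control and 202 CPM (180.5 to 226) in the cKO library in cluster 9 and 3.98 and 2.83 CPM in cluster 15, a ratio of 60.2 times (23.4 to 222) in the control. Adamtsl3 was high in clusters 9 (616 and 562 CPM) and 5 (476 and 453 CPM) and low in cluster 15 (19.9 and 25.4 CPM). Mmp3 was in cluster 5, with 7.39 and 10.8 CPM there and 0.896 and 0.651 CPM in cluster 9.

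Cluster 15 was marked by other members. Adamts12 had 1250.0 and 1048 CPM in cluster 15 against 695 and 610.3 CPM in cluster 9. Adamts19 had 307 and 267 CPM in cluster 15 against 81.2 and 64 CPM in cluster 5, and Mmp16 had 205 and 249 CPM against 43.5 and 33.8 CPM in cluster 9. Adamts5 went the other way, with 638 and 728 CPM in cluster 9 and 191 and 181 CPM in cluster 15. Adamtsl1 had 1536 and 1926 CPM in cluster 9 and 383 and 466 CPM in cluster 5. For each of these named genes the highest fibroblast-like cluster was the same in both libraries, whereas the lowest cluster of Adamts12 was cluster 9 in the control and cluster 5 (526 CPM) in the cKO library.

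The mesothelial-like nuclei were in cluster 6 (Rmst, Vat1l and Ctnnd2) and cluster 8 (Muc16 and Rbfox1). The higher of these clusters was the same in both libraries for 22 of 29 measured members (59.7% of all genes). Adamts17 had 94.9 CPM (85.3 to 105) in the control and 94.2 CPM (80.2 to 110.0) in the cKO library in cluster 6 and 11.6 and 17.3 CPM in cluster 8, a ratio of 8.20 times (5.76 to 12) in the control. Adamts19 had 243 and 249 CPM in cluster 6 and 42.5 and 51.4 CPM in cluster 8. Mmp28 was also higher in cluster 6, with 78.6 and 89 CPM against 34.4 and 44.9 CPM. Adamts3 was higher in cluster 8, with 147 and 163 CPM against 84.3 and 89.5 CPM, while Adamtsl1 was high in both, with 3056 and 3405 CPM in cluster 8 and 2862 and 2840.0 CPM in cluster 6.

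The vascular endothelial-like nuclei were in 4 clusters, led by Gpihbp1, Rbp7 and Flt1 (13), Nrxn3 and Ncam2 (19), Vwf, Lepr and Plvap (20), and Gja5, Sema3g and Sox17 (21). The highest cluster was the same in both libraries for 19 of 27 measured members, against 41.7% of all genes. Timp4 had 44.6 CPM (32.8 to 59.4) in the control and 33.4 CPM (24 to 45.3) in the cKO library in cluster 13, which also held the highest Adamts9 (441 and 425 CPM, against 113 and 218 CPM in cluster 21). Adamts18 had 93.1 CPM (72.7 to 118) in the control and 41.3 CPM (24.8 to 64.4) in the cKO library in cluster 20. It had 26.6 and 22 CPM in cluster 13 and 0 UMIs in clusters 19 and 21 of both libraries. Cluster 21, whose leading genes are known from arteries, had the highest Timp3 (696 and 944 CPM, against 168 and 124 CPM in cluster 20) and the highest Adamts1 (44.8 and 84.3 CPM, against 10.4 and 12.2 CPM in cluster 13). The 4 clusters held 55 to 169 cKO nuclei each, so the intervals of the low members are wide.

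Adipocyte-like nuclei were in clusters 0 (Slc1a3), 1 (Elovl6, Acly, Acss2 and Me1, genes of fatty acid synthesis), 2 (Nnat, Tshr and Peg3) and 7 (Nnat and Adrb3). The same cluster was highest in both libraries for 14 of 37 measured members, against 40.1% of all genes. Timp4 was the clearest of these, with 16.8 CPM (15 to 18.8) in the control and 18.2 CPM (13.6 to 23.8) in the cKO library in cluster 2 and 2.32 and 4.84 CPM in cluster 1, a ratio of 7.22 times (4.87 to 11.1) in the control. Adamtsl4 had 8.80 and 9.93 CPM in cluster 2 and 2.24 and 2.87 CPM in cluster 1. Adamts9 went the other way, with 279.9 and 349 CPM in cluster 1 and 193 and 175 CPM in cluster 2. Adamts2 had 139.8 and 99.3 CPM in cluster 2 and 75.2 and 73.2 CPM in cluster 1.

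**Figure D3:**
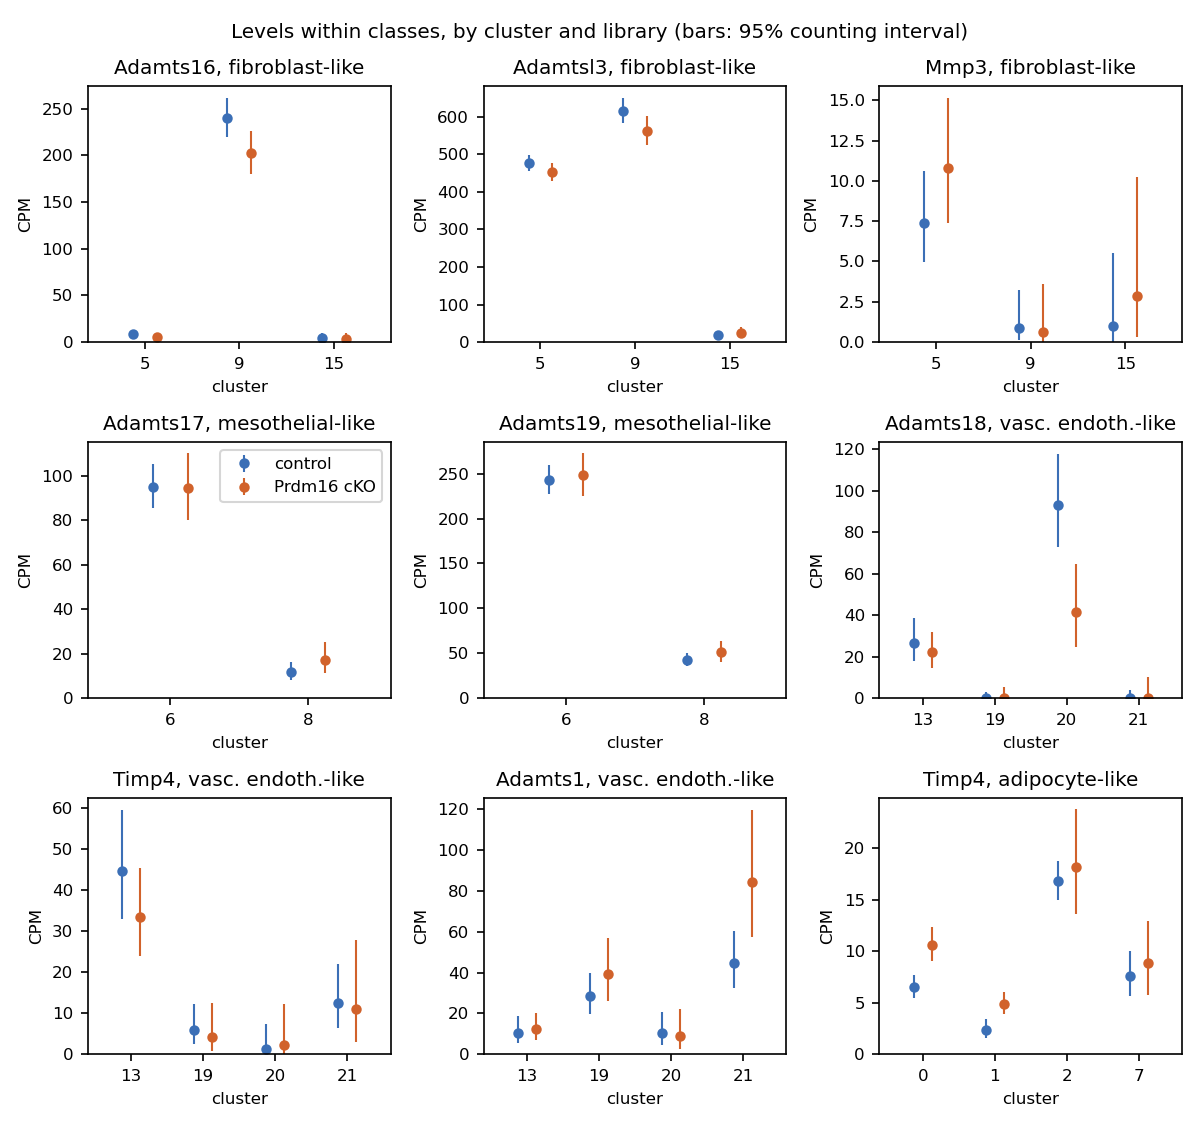
CPM (linear vertical axes) of selected genes in the clusters of 1 class (horizontal axes), with control in blue and cKO in orange and bars for the 95% counting interval. Adamts16 lies in fibroblast-like cluster 9 (240 and 202 CPM), Adamts17 in mesothelial-like cluster 6 and Adamts18 in vascular endothelial-like clusters 13 and 20, in both libraries.

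The comparison of libraries asks which of these genes differ between the control library and the library whose label names floxed Prdm16 and the adipocyte Cre. Prdm16 encodes a factor that drives thermogenic fat genes, and its counts, given above, do not check that it was deleted. A gene was counted as higher or lower in a class when its CPM differed by at least 1.5 times (0.58 on the log2 scale) between libraries, with at least 20 UMIs in the class. Over the 9 classes, 218 pairs of a member and a class were measured, of which 29 were higher in the cKO library (background 9.96% of all gene and class pairs) and 22 were lower (background 6.56%). Intervals lay apart from 0 for 16 of the 29 (5.56% of all pairs) and 10 of the 22 (2.96%). As shares of 218 pairs, both counts were above the background, and whether they differ from it was not tested. For 13 of the 51 called pairs, the ratio stayed past 1.5 times in the same direction under every alternative processing of the whole class that gave a ratio. With suspected doublets kept, 19 of the 51 no longer passed.

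In adipocyte-like nuclei, where Cre is meant to act, 5 of 37 measured members were higher in the cKO library (7.89% of all genes) and 3 were lower (5.18%), and the median log2 ratio was 0.07 against 0.04 for all genes. Adamts15 had 6.90 CPM (6.24 to 7.62) in the control and 12.1 CPM (11.1 to 13.3) in the cKO library, and its log2 ratio was 0.81 (0.62 to 1.01). Clusters 0 and 2 held most adipocyte-like nuclei of the control, while clusters 0 and 1 held most of those of the cKO library. The ratio of Adamts15 was above 0 within each of the 4 clusters: 0.85 for cluster 0, 1.13 for cluster 1, 1.45 for cluster 2 and 0.73 for cluster 7. In fibroblast-like and mesothelial-like nuclei the log2 ratios of Adamts15 were 0.02 (-0.43 to 0.46) and -0.15 (-0.65 to 0.33), with intervals that include 0. Adamts15 was also counted as higher in vascular endothelial-like and macrophage-like nuclei and as lower in T cell-like nuclei, with ratios given below. The difference between classes was not tested.

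The other members higher in cKO adipocyte-like nuclei were scarce. Adamts7 had 0.486 CPM (0.323 to 0.702) in the control and 0.973 CPM (0.685 to 1.34) in the cKO library, from 28 and 37 UMIs, a log2 ratio of 1.00 (0.25 to 1.76). Tbc1d2b, which overlaps Adamts7 antisense, had 60.4 and 69.2 CPM in these nuclei, and its part in the Adamts7 counts was not tested. The log2 ratios were 0.80 (0.09 to 1.52) for Mmp27, 0.74 (0.25 to 1.24) for Adamtsl2 and 0.69 (-0.06 to 1.45) for Adamts14, each at under 2 CPM in both libraries. The 3 lower members were Mmp7, described above with the gut nuclei, Adamts18 (-0.83 (-2.04 to 0.26)) and Mmp17 (-0.62 (-1.93 to 0.56)), the last pair with intervals that include 0.

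Abundant adipocyte members differed by less than 1.5 times. Adamts12 had a log2 ratio of -0.35 (-0.38 to -0.32) and Adamts5 of -0.35 (-0.38 to -0.31), both lower in the cKO library. Adamts12 was also lower within each adipocyte cluster, with log2 ratios of -0.22, -0.23, -0.35 and -0.27 in clusters 0, 1, 2 and 7. Adamts5 was not: its ratios were -0.34 and -0.57 in clusters 0 and 2 but 0.12 (0.05 to 0.19) in cluster 1 and 0.13 (0.02 to 0.25) in cluster 7. The make-up of the class moved with these values, since cluster 2 held 1477 control and 224 cKO nuclei and cluster 1 held 803 and 1213, and its part in them was not tested. Adamts2 had -0.39 (-0.46 to -0.33) in the whole class and -0.17, -0.04, -0.49 and -0.38 in clusters 0, 1, 2 and 7. Adamts9 was higher at 0.36 (0.33 to 0.40) in the whole class, with 0.15, 0.32, -0.14 and 0.28 in the same clusters, so each cluster lay below the class value. Mmp28 had 0.17 (0.12 to 0.22). Timp2, Timp3 and Timp4 had log2 ratios of -0.01 (-0.19 to 0.16), 0.03 (-0.14 to 0.19) and -0.09 (-0.30 to 0.11) in adipocyte-like nuclei, intervals that all include 0. Within clusters, Timp4 was higher in the cKO library in cluster 0 (6.52 and 10.6 CPM, 0.70 (0.37 to 1.04)) and cluster 1 (2.32 and 4.84 CPM, 1.06 (0.41 to 1.74)), and its ratios were 0.11 (-0.34 to 0.54) in cluster 2 and 0.22 (-0.52 to 0.93) in cluster 7.

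In fibroblast-like nuclei, 5 of 32 measured members were higher (7.89% of all genes) and none of the 32 was lower (4.51%). Adamts20 (1.02 (0.10 to 1.96)) and Mmp27 (1.19 (0.14 to 2.30)) had intervals apart from 0, and Timp4 (0.97 (-0.23 to 2.23)), Adamts7 (0.96 (-0.03 to 1.97)) and Mmp3 (0.60 (-0.13 to 1.34)) did not. All 5 had at most 36 UMIs in either library. Adamts12, the abundant member there, was lower by less than 1.5 times in the whole class, at -0.48 (-0.54 to -0.42). In cluster 5 it passed that threshold, with 866 and 526 CPM and a ratio of -0.72 (-0.81 to -0.63), against -0.19 in cluster 9 and -0.26 in cluster 15. In mesothelial-like nuclei, 3 of 29 were higher (8.03%) and 2 were lower (5.14%). Adamtsl4 had 23.9 CPM (20.3 to 27.9) in the control and 36.4 CPM (30.2 to 43.6) in the cKO library, a log2 ratio of 0.61 (0.26 to 0.96), and Mmp19 had 0.70 (0.23 to 1.17). With doublets kept, these ratios were 0.45 and 0.43, under 1.5 times. Adamts20 (0.79 (-0.11 to 1.69)), Mmp24 (-0.61 (-2.08 to 0.67)) and Mmp17 (-0.95 (-2.53 to 0.37)) had intervals that include 0.

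Vascular endothelial-like nuclei had 3 of 27 measured members higher (13.3% of all genes) and 5 lower (8.34%). Mmp14 had 14.9 CPM (11.3 to 19.2) in the control and 6.51 CPM (3.86 to 10.3) in the cKO library, a log2 ratio of -1.19 (-2.04 to -0.41). Adamts18 (-0.59 (-1.12 to -0.07)) and Adamts3 (-0.68 (-1.39 to -0.01)) were also lower with intervals apart from 0, and Adamts17 (-0.70 (-1.43 to 0.00)) and Mmp15 (-0.84 (-1.85 to 0.08)) were lower with intervals that reach 0. With doublets kept, the ratios were -0.24 for Adamts18, -0.44 for Adamts3 and -0.53 for Adamts17, under 1.5 times, whereas Mmp14 passed it in 9 of 9 alternatives. Adamts15, with 7 and 20 UMIs, had a log2 ratio of 2.03 (0.73 to 3.52), Adamtsl5 had 0.60 (0.03 to 1.17) and Adamts20 had 1.10 (-0.31 to 2.60). Adamts20 fell to 0.39 with doublets kept, and Adamtsl5 to 0.39 with the members among the variable genes used for clustering, 0.53 at a finer clustering and 0.57 with median-ratio scaling, all under 1.5 times. The summed adipocyte markers reached 27.3% (control) and 49.2% (cKO) of their level in adipocyte-like nuclei, and their part in these ratios was not tested. Lymphatic endothelial-like nuclei had 2 of 15 higher (10.4%) and 1 lower (8.76%): Adamts3 (0.79 (-0.37 to 1.94)), Adamtsl4 (0.68 (-0.51 to 1.85)) and Adamts17 (-1.85 (-4.24 to -0.09)).

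Adamts9 and Mmp28, both abundant in adipocyte-like nuclei, were among the higher members of some immune classes. In T cell-like nuclei 4 of 21 were higher (10.2%) and 2 lower (8.53%), in B cell-like nuclei 2 of 15 were higher (13.1%) and 4 lower (8.3%), and in dendritic-like nuclei 2 of 18 were higher (13.2%) and 3 lower (7.4%). Adamts9 had log2 ratios of 0.76 (0.46 to 1.07) in T cell-like, 0.77 (0.39 to 1.16) in B cell-like and 0.78 (0.43 to 1.13) in dendritic-like nuclei. Mmp28 had 0.69 (0.19 to 1.19) in T cell-like and 1.40 (0.74 to 2.10) in B cell-like nuclei. All 5 ratios fell under 1.5 times with doublets kept, to 0.41, 0.14 and 0.48 for Adamts9 and 0.14 and 0.28 for Mmp28, in the same order. Adipocyte markers moved with them: their level as a share of that in adipocyte-like nuclei was 33.6% and 45.8% in T cell-like, 26.4% and 43.2% in B cell-like and 24.6% and 40.2% in dendritic-like nuclei. The part of adipocyte RNA in these ratios was not tested.

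Other members of the immune classes moved otherwise. Adamts6 was lower in B cell-like nuclei, with -0.59 (-0.86 to -0.32), or -0.27 with doublets kept. Timp2 was lower in T cell-like nuclei (-0.62 (-1.20 to -0.07)) and Timp3 in dendritic-like nuclei (-1.02 (-1.77 to -0.32), or -0.54 with doublets kept). Mmp19 was higher in T cell-like (1.26 (0.08 to 2.50), or -0.04 after thinning) and lower in dendritic-like nuclei (-1.34 (-2.77 to -0.13)), on 11 and 17 UMIs and 31 and 7 UMIs. The remaining called members of these classes had intervals that include 0: Timp4 (0.73) and Adamts15 (-0.65) in T cell-like, Mmp16 (-0.65), Mmp14 (-0.70) and Adamts19 (-0.96) in B cell-like, and Mmp23 (1.39) and Adamtsl5 (-0.66) in dendritic-like nuclei. Macrophage-like nuclei had 3 of 24 higher (8.17%) and 2 lower (5.23%): Mmp2 (0.63), Adamts15 (0.61), Adamts20 (0.60) and Timp4 (-0.70) with intervals that include 0, and Adamts19 (-0.85 (-1.63 to -0.13)).

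**Figure D4:**
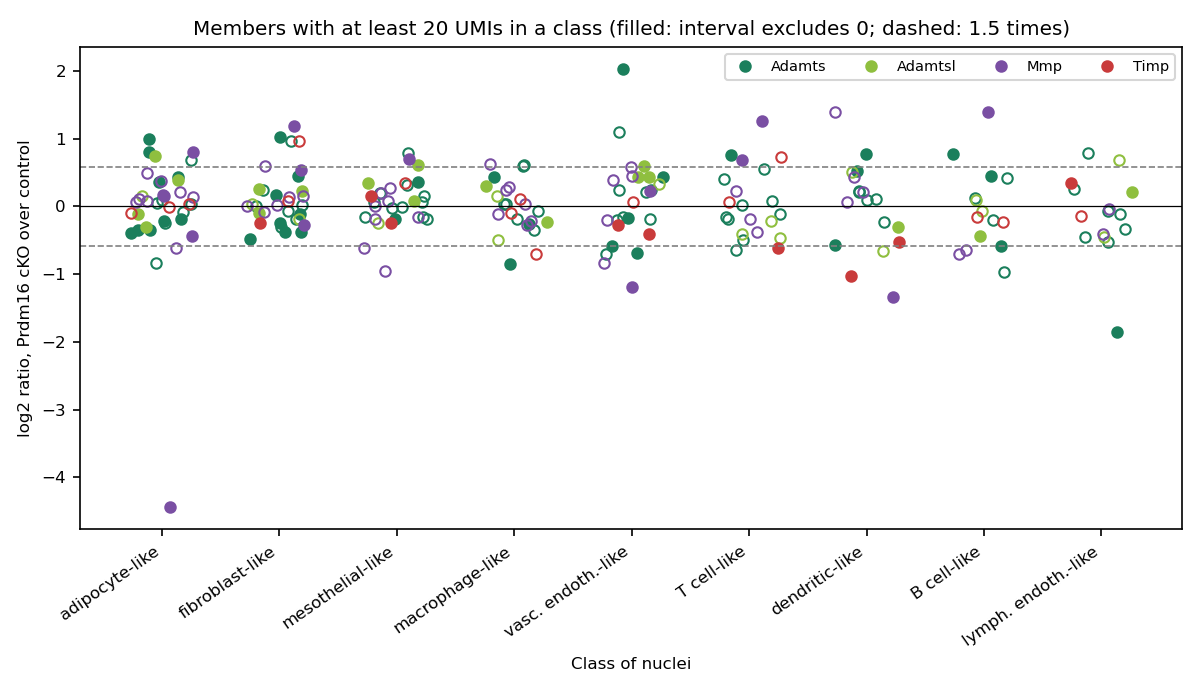
Log2 ratio of the cKO library over the control (vertical axis) for each measured member, by class (horizontal axis) and family (colour). Filled points have a 95% counting interval apart from 0, dashed lines mark 1.5 times, and 167 of the 218 points lie between them.

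Other genes of the pathway were read from 4 lists. Among 10 measured activators and anchors (furin-type convertases, plasminogen activators and surface receptors that hold MMPs), none passed 1.5 times in adipocyte-like nuclei, from Itgb3 (-0.45) and Pcsk5 (-0.38) to Bsg (0.23) and Furin (0.37) (log2 ratios). Of 9 measured other inhibitors and clearance receptors, Papln (1.65) was higher. Of 18 measured matrix proteins that these enzymes cut, Thbs1 (-1.49) was lower and none was higher, with a median of -0.21 against 0.04 for all genes. Of 13 measured other metalloproteases, Mep1b (-2.16), a gut meprin, was lower.

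In fibroblast-like nuclei, Itgb3 (-0.63) was lower among 10 activators and anchors, none of 10 inhibitors and receptors passed 1.5 times, Thbs1 (-0.90) and Eln (-0.63) (elastin) were lower among 17 matrix proteins, and Tll1 (0.70) was higher among 12 other metalloproteases. In vascular endothelial-like nuclei, Comp (-2.54), Fbn2 (-0.63) and Eln (-0.84) were lower among 18 matrix proteins, A2m (-4.29) and Spock3 (-1.48) were lower and Lrp1 (0.64) higher among 9 inhibitors and receptors, Plat (-0.61) and Itgb3 (-1.32) were lower and Pcsk6 (0.77) higher among 10 activators, and Tll1 (-1.13) was lower and Mme (1.17) higher among 11 other metalloproteases. The background shares in these classes are those given above.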

How the data were processed

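Single-nucleus libraries of mesenteric perivascular fat (10x Genomics 3' chemistry) were analysed, 1 per genotype. The deposited matrices hold raw UMI counts per gene and barcode, made with Cell Ranger 6.1.2 and the build mm10 (submitters' processing notes). How introns and strand were counted, which annotation was used and how barcodes were chosen was not given in the sources used here. The libraries held 12060 and 8086 barcodes (108987031 and 70895490 UMIs). Nuclei with at least 500 UMIs, 300 genes and under 5% mitochondrial UMIs were kept. Scrublet's automatic threshold marked 0.009% and 0% of nuclei, so the highest scores were removed at 0.8% per 1000 nuclei (1079 and 495). Kept nuclei were clustered in Python 3.11.15 with scanpy 1.11.5 (2000 variable genes without the 50 members, 30 components, 20 neighbours) and leidenalg 0.10.2 at resolution 1.0. Clusters were named from 23 marker sets when at least 3 markers were found, and unnamed nuclei were left out. These were 484 nuclei (4.6%) of the control and 996 (13.5%) of the cKO library, in cluster 3. Its best set was that of adipocytes, with Plin4 and Lep found. The effect of leaving it out on the adipocyte-like values was not tested. Names are rebuilt, so differences from other accounts can come from them. Counts were summed per class. CPM have exact Poisson intervals, log2 ratios exact conditional binomial intervals, and shares of nuclei exact Clopper-Pearson intervals (95%). On simulated 2-fold changes in adipocyte-like nuclei, 98.0% of 200 changed genes and 4.31% of the unchanged among 17331 passed 1.5 times. The simulation held counting error only, at the depth of the class with most UMIs. It therefore checks the calculation and does not cover the smaller classes or differences between animals, libraries or free RNA. Positions are GENCODE M21 on GRCm38. Named genes were every Timp, each member with at least 100 UMIs and each called member. The members and lists were chosen with earlier results of these data known. The value of 1 gene of the other pathway lists is not reported here. The alternatives were doublets kept, members among the variable genes, separate clustering, resolution 2.0, mean CPM per nucleus, median-ratio scaling, thinning, free RNA subtraction, at least 50 UMIs and a fold of 2.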

Additional observations from a re-analysis of the deposited data

Results flagged for a closer look

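Classes too small to compare held high levels of 7 members. Pericyte-like nuclei (74 and 44), which wrap small vessels, had Timp3 at 1519 CPM (1390.0 to 1656) in the control and 1143 CPM (1019 to 1277) in the cKO library, above every compared class. The same nuclei had Adamts12 at 1363 CPM (1241 to 1493) in the control and 1047 CPM (928 to 1176) in the cKO library and Mmp15 at 35.3 CPM (18.2 to 61.7) in the control and 22.2 CPM (8.14 to 48.3) in the cKO library. Eosinophil-like nuclei (181 and 99) had Mmp9 at 57.1 CPM (38.5 to 81.5) in the control and 48.1 CPM (26.3 to 80.7) in the cKO library, above macrophage-like nuclei at 7.61 and 7.83 CPM. Retnlg, from the neutrophil marker set, was among the leading genes of this cluster, which may therefore hold neutrophil nuclei too. Schwann-like nuclei (30 and 25) had Adamts20 at 120.0 CPM (68.6 to 195) in the control and 149 CPM (86.6 to 238) in the cKO library and Adamts14 at 67.5 CPM (30.9 to 128) in the control and 122 CPM (66.9 to 205) in the cKO library. Intestinal epithelial-like nuclei had Mmp7 at 192 CPM (168 to 218) in the control and 49.9 CPM (27.3 to 83.8) in the cKO library. Each was flagged as a signal outside the compared classes. Mmp19 was flagged because its log2 ratio, cKO over control, took opposite signs: 0.70 in mesothelial-like and 1.26 in T cell-like nuclei, and -1.34 in dendritic-like nuclei. The difference between these classes was not tested.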

How the results depend on the processing

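No paired analysis was possible because each genotype had 1 library and the labels carry no replicate numbers. The precision is set by the UMIs of a class, and scarce members have wide intervals. The class with the highest level was the same in both libraries for 24 to 33 members under the alternatives run (32 as reported, with 24 after thinning to 1000 UMIs), and a minimum of 50 UMIs was not run for it. Of 51 called pairs, 13 had a ratio past 1.5 times in every whole-class alternative that gave one, up to 9, among them Adamts15 and Adamts7 in adipocyte-like and Mmp14 in vascular endothelial-like nuclei, and 19 no longer passed it with doublets kept. The 29 higher and 22 lower pairs became 13 and 11 after thinning, 14 and 9 with at least 50 UMIs, 8 and 5 at a fold of 2, and 58 and 43 when a free RNA share estimated from markers was subtracted. The last alternative and the mean within fibroblast-like clusters were chosen after seeing the data. The 5 members higher in adipocyte-like nuclei became 3 with separate clustering, 2 after thinning, 1 at a fold of 2 and 8 with the estimated free RNA subtracted. The 3 lower ones became 1 with members among the variable genes, 0 with at least 50 UMIs, 1 at a fold of 2, 6 with the estimated free RNA subtracted and 0 by the mean within clusters. The 5 higher in fibroblast-like nuclei became 1 after thinning, 1 with at least 50 UMIs, 2 at a fold of 2 and 2 by the mean within clusters. Fewer counts, a higher minimum or a higher fold lower such counts by construction, and the cause of the other changes was not tested. Of 659 recomputed ratios of single members, 583 stayed within their counting interval, 64 moved and 12 reversed. The reversed log2 ratios in adipocyte-like clusters were Adamtsl2 at -0.08 in cluster 1, and Mmp17 at 1.66 and Mmp27 at -0.80 in cluster 2. Thinning turned Mmp24 in mesothelial-like nuclei (2.53), Adamts19 in macrophage-like (0.57) and B cell-like nuclei (0.49), and Adamts15 (0.70) and Mmp19 (-0.04) in T cell-like nuclei. Mean CPM per nucleus turned Mmp24 in mesothelial-like nuclei (0.88), separate clustering turned Adamts15 in T cell-like (0.05) and Adamts19 in B cell-like nuclei (0.01), and keeping doublets turned Adamtsl5 in dendritic-like nuclei (0.27).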
